A study of Homo sapiens with 12 samples.

Results

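The 49 genes described here encode the proteins that license replication origins, start and run the replication fork, and supply it with deoxynucleotides (dNTPs). They were taken by gene symbol from a table of read counts over 20212 protein-coding genes, and all 49 had 1 row there. Their mRNAs were measured in PANC-1, an established human pancreatic cancer cell line that the labels describe as human pancreatic duct. The study used this line as a pancreatic cancer model that has lost the 4EBP1 protein, so the values stand for 1 line. Cultures in serum-containing medium were given the solvent DMSO or 50 nM rapamycin, an inhibitor of the kinase complex mTORC1, for 60 min. From each of the 3 cultures per treatment came a library of ribosome-protected fragments (RF) and one of total RNA, 12 in all. The labels number the cultures without saying how separately they were grown, so p-values measure only the spread between these samples. Read against total RNA, RF gives the translation efficiency (TE) of a gene, and the comparison addressed whether rapamycin changed the TE of the replication genes within this time.

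As background, the origin recognition complex (ORC1 to ORC6) with CDC6 and CDT1 loads the MCM2 to MCM7 ring onto DNA before S phase, and geminin (GMNN) restrains CDT1. CDC45 and the GINS complex then turn the ring into an active helicase, polymerase alpha with primase starts each strand, and polymerases delta and epsilon extend it on the PCNA clamp. Ribonucleotide reductase, built from RRM1 and RRM2, makes the deoxynucleotides, while TYMS and TK1 provide thymidylate. mTORC1 is best known in translation for its hold on mRNAs that begin with a terminal oligopyrimidine (TOP) stretch, which are chiefly those of ribosomal proteins and translation factors.

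The RF libraries were shallow, with 278835 to 1574723 reads against 78081241 to 94293744 in the total RNA libraries. A count of 0 allows up to 3 reads, or 1.91 to 10.8 CPM (counts scaled to a common library size) in the RF libraries, and this limit covers counting error only. The members had 19 to 2036 RF reads summed over 6 libraries, with a median of 174 against 87 over all genes tested. The biological coefficient of variation was 54.9% in RF and 5.31% in total RNA. The RF library of DMSO replicate 2 stood apart: 445 genes had no read there where the other RF libraries led to at least 10 (3 to 148 such genes elsewhere), among them 1 member, ORC3. The total RNA libraries of DMSO replicates 1 and 2 also stood apart, with 16840 and 16858 genes detected against 19751 to 19847 in the other 4. Of the epithelial markers, the keratins KRT8, KRT18 and KRT19 were high, at 1666 to 1765, 1478 to 1607 and 1326 to 1428 FPKM (fragments per kilobase of transcript, scaled to library size), while EPCAM and CDH1 were low, at 4.58 to 5.03 and 6.78 to 7.98. Of the mesenchymal markers, VIM was at 2410 to 2568 FPKM, CDH2 at 24.0 to 26.1 and FN1 at 0.438 to 0.827. Among the markers of fibroblasts, endothelium, immune, acinar and islet cells, the summed level was 70.1 to 89.5 FPKM, of which CD68, a lysosomal gene, made up 69.0 to 88.3.

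Because TOP starts are what mTORC1 is known to act on, the first 20 bases of the most abundant complete coding isoform of each gene were read from the GENCODE annotation of GRCh37. A TOP start was taken as a C followed by at least 4 pyrimidines (C or T). Of the 49 members, 4 had one (8.16%), against 557 of 12726 tested genes (4.38%). These 4 are shown first, each from the first exon, with the pyrimidine run in capitals. Below them stand 5 of the 6 members with a TE change at an unadjusted p under 0.05, and none of these 5 begins with a pyrimidine. The sequence of MCM4 is not shown.
ORC1, chr1:52870076-52870095, minus strand: CCTTCCaccttcttttcatt
CDT1, chr16:88870197-88870216, plus strand: CTCCCTTCCTTCTTTCCTTg
MCM2, chr3:127317254-127317273, plus strand: CTTTTCgcgcgaaacctggt
RRM1, chr11:4116029-4116048, plus strand: CCCTTTgtgcgtcacgggtg
ORC2, chr2:201828364-201828383, minus strand: atcccccagctggcctccgg
CLSPN, chr1:36235560-36235579, minus strand: aaagcaagaacagcactgct
CDC45, chr22:19467443-19467462, plus strand: gggctcttggtacctcagcg
TK1, chr17:76183114-76183133, minus strand: ggcttactgcgggacggcct
POLD1, chr19:50887604-50887623, plus strand: gtcacggcggcgtaggctgt
The TE changes of the 4 genes with a TOP start lay on both sides of 0. The log2 fold change was -0.15 for ORC1, 0.69 for CDT1, -0.54 for MCM2 and -0.22 for RRM1. None of the 4 had an unadjusted p under 0.05. Annotated 5′ ends were not measured in these cells.

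Rapamycin left no replication gene past the threshold for a change in TE. In edgeR's quasi-likelihood test of the interaction of library type and treatment, with Benjamini-Hochberg adjustment over 13329 genes, 0 of the 49 members had an adjusted p under 0.05, as did 0 genes in all, and the smallest adjusted p of a member was 0.244. At an unadjusted p under 0.05, 3 members were lower (MCM4, ORC2 and CLSPN; 6.12%) and 3 were higher (CDC45, TK1 and POLD1; 6.12%). Over all genes tested, 6.42% were lower and 6.17% higher at that level, so the members' shares sat at the background. The median TE log2 fold change was -0.15 over the members and -0.06 over all genes, and 29 of 49 members had a fitted value below 0 against 53.7% of all genes. DESeq2's Wald test gave other counts: 4 members lower (ORC2, MCM2, MCM4 and CLSPN) and 3 higher (CDC45, POLD1 and POLE3) at an adjusted p under 0.05, beside 4.61% and 5.21% of the genes to which it gave an adjusted p. With the culture as a block for its RF and total RNA library, 1 member was lower (MCM4) and 0 were higher at an unadjusted p under 0.05, against 2.15% and 1.41% of all genes. Without DMSO replicate 2, 6 members were lower and 1 higher at that level, against 7.32% and 6.85% of all genes. Both models fit 1 spread per gene to both library types, although RF varied far more than total RNA.

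**Figure D1:**
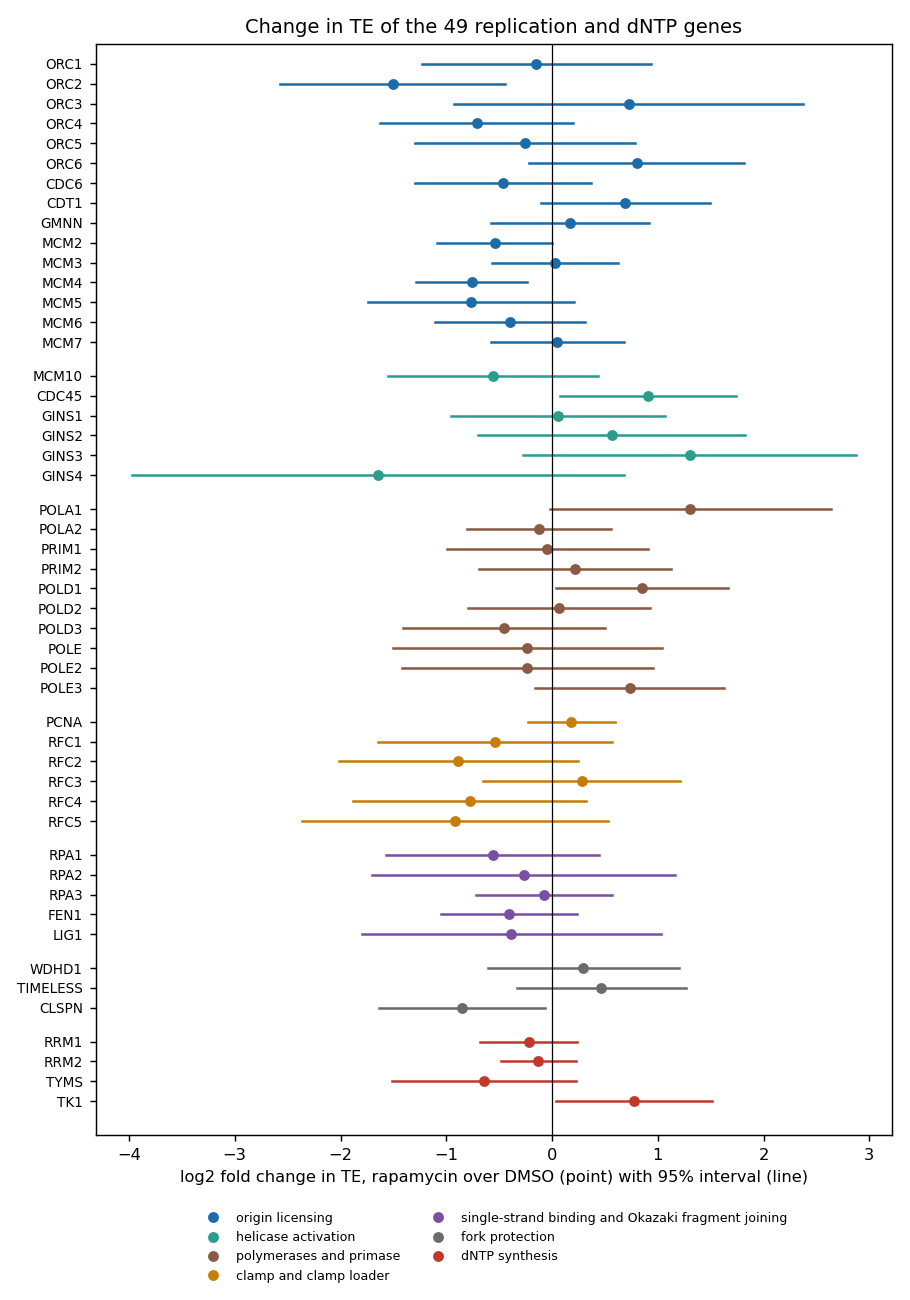
Log2 fold change in TE (rapamycin over DMSO, x axis) of each of the 49 genes, with points for the edgeR estimate, lines for its 95% interval and colours for the role of the gene. Of the 49 intervals, 43 cross 0, and the widest belongs to GINS4, with 31 RF reads in all.

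Of the 15 origin licensing genes, 9 (60%) had a TE value below 0, near the 53.7% of all genes. The best measured of the 15 were subunits of the MCM ring. MCM4, a subunit of the replicative helicase, had RF levels of 175, 268 and 166 CPM in the 3 DMSO cultures and 122, 119 and 99.8 CPM in the 3 rapamycin cultures. Every rapamycin culture was below every DMSO culture, both in RF and in TE, while total RNA (271 to 294 CPM in DMSO and 266 to 275 in rapamycin) overlapped. The log2 fold change of MCM4 was -0.76 in TE (95% interval -1.29 to -0.24, adjusted p = 0.244 in edgeR) and -0.83 in RF. Without DMSO replicate 2, the highest of the DMSO cultures, the TE value was -0.50.

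MCM2, the subunit with a TOP start, had RF levels of 117, 156 and 181 CPM in DMSO and 88.7, 128 and 93.1 CPM in rapamycin. The rapamycin cultures lay mostly lower, but replicate 2 overlapped the DMSO range. Its TE log2 fold change was -0.54 (95% interval -1.09 to 0.00). MCM5 had 92.3, 153 and 90.4 CPM in DMSO and 81.2, 82.3 and 13.3 CPM in rapamycin. Its groups did not overlap in RF or in TE, but the lowest value rests on 4 reads in the smallest RF library, and the interval of its TE log2 fold change of -0.77 ran from -1.74 to 0.21.

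The other subunits of the ring showed no separation between the treatments. MCM3 had 157, 108 and 128 CPM of RF in DMSO and 154, 126 and 76.5 CPM in rapamycin. MCM6 had 89.2, 165 and 82.2 CPM in DMSO, where replicate 2 stood high, and 94.5, 79.9 and 79.8 CPM in rapamycin. MCM7, which had the most RF reads of the ring, was at 114, 234 and 180 CPM in DMSO and 234, 156 and 146 CPM in rapamycin. Their TE log2 fold changes were 0.03, -0.40 and 0.05, and each of these 3 changed sign when 1 culture was left out. Across the 6 subunits, 2 did not overlap between the treatments in TE, both lower (MCM4 and MCM5), where 6.19% of all genes were lower and 4.8% higher without overlap. The median TE log2 fold change was -0.47 over the 6 subunits and -0.06 over all genes.

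Summed over the ring, MCM2 to MCM7 had 798, 978 and 775 CPM of RF in the DMSO cultures and 744, 720 and 549 CPM in the rapamycin cultures, counted over library totals. The rapamycin cultures were all below the DMSO cultures there, with a mean difference of -21.1%. The highest value came from DMSO replicate 2, which stood apart, and the lowest from rapamycin replicate 3, the smallest RF library. With TMM scaling the difference was -25.7% but the groups overlapped, because DMSO replicate 1 (744 CPM) was then below rapamycin replicate 1 (774 CPM). In total RNA the mean difference of the ring was -2.26% with library totals and -2.81% with TMM, and the groups were separate under both.

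In the origin recognition complex the TE values lay on both sides of 0. ORC2 had 6, 29 and 41 RF reads in DMSO and 8, 7 and 7 in rapamycin, or 18.5, 36.4 and 27.9 CPM against 6.63, 8.47 and 23.3 CPM. The first and second rapamycin cultures were below every DMSO culture, and the third, the smallest library, was above DMSO replicate 1. Its TE log2 fold change was -1.51 (95% interval -2.57 to -0.45, adjusted p = 0.25 in edgeR), and with the culture as a block it was -1.34 and no longer under an unadjusted p of 0.05. ORC6 was separate in the other direction, with a TE log2 fold change of 0.80 (95% interval -0.21 to 1.82) on 95 RF reads in all. The other 4 subunits had TE log2 fold changes from -0.71 (ORC4) to 0.72 (ORC3), and ORC3 had no RF read in DMSO replicate 2. Of the loading factors, CDC6 was at -0.46, CDT1 at 0.69 and its inhibitor GMNN at 0.17, each with overlapping groups.

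Among the genes of helicase activation, CDC45, which joins the MCM ring in the active helicase, had 9, 14 and 19 RF reads in DMSO and 23, 32 and 14 in rapamycin. These were 27.7, 17.6 and 12.9 CPM against 19.1, 38.7 and 46.6 CPM. Rapamycin replicate 1 lay inside the DMSO range and the other two were above it. The TE log2 fold change was 0.90 (95% interval 0.07 to 1.74, adjusted p = 0.358 in edgeR), and the unadjusted p stayed under 0.05 in no edgeR alternative with all cultures. MCM10, a factor needed for origin firing, was at -0.56 in TE with overlapping groups. The GINS subunits had 19 to 130 RF reads in all and TE log2 fold changes from -1.65 (GINS4) to 1.30 (GINS3), all with intervals that cross 0.

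Of the 10 polymerase and primase genes, 5 had a TE value below 0 and 5 above, where 53.7% of all genes were below 0. Their median log2 fold change was 0.01. POLD1, the catalytic subunit of polymerase delta, had 21.5, 23.9 and 17 CPM of RF in DMSO and 43.1, 33.9 and 29.9 CPM in rapamycin. Every rapamycin culture was above every DMSO culture in RF and in TE, on 7 to 52 reads per library. Its TE log2 fold change was 0.85 (95% interval 0.04 to 1.66, adjusted p = 0.376 in edgeR), and with the culture as a block it was 0.78 and no longer under an unadjusted p of 0.05. Reads of POLD1 cannot all be told from those of an overlapping readthrough gene on the same strand, which covers 8.63% of its exons. POLA1, the catalytic subunit of polymerase alpha, was at 1.31 (95% interval -0.02 to 2.64), and POLE, that of polymerase epsilon, at -0.23.

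The clamp PCNA was among the best measured members, and its fitted TE change was small. It had 175, 219 and 202 CPM of RF in DMSO and 198, 234 and 223 CPM in rapamycin, which overlap. The interval of its TE log2 fold change of 0.18 ran from -0.23 to 0.59. It comes from the fit with 1 spread for both library types. The members' median standard error was 0.43 in that fit, against 0.57 in RF alone. The interval may therefore be too narrow, and it sets no firm bound on the change of PCNA. Of the clamp loader subunits, 4 of 5 had TE values below 0, from -0.92 (RFC5) to -0.54 (RFC1), RFC3 was at 0.28, and none of the 5 was separate between the treatments. All 5 genes of single-strand binding and Okazaki fragment joining (RPA1, RPA2, RPA3, FEN1 and LIG1) had TE values below 0, from -0.56 to -0.08, against 53.7% of all genes. The groups of each of them overlapped, and every interval crossed 0.

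Fork protection held 1 of the lower members. CLSPN encodes claspin, the adaptor through which the kinase ATR activates CHK1 at stalled forks. Its RF levels were 49.2, 88.0 and 90.4 CPM in DMSO and 29.0, 47.2 and 46.6 CPM in rapamycin. Every rapamycin culture was below every DMSO culture in RF, and the same held in total RNA, at 76.2, 70.8 and 66.7 CPM in DMSO and 65.8, 60.6 and 66.1 CPM in rapamycin. The log2 fold change was -0.85 in TE (95% interval -1.63 to -0.07, adjusted p = 0.358 in edgeR), -0.93 in RF and -0.15 in total RNA. With the culture as a block it was -0.77 in TE and no longer under an unadjusted p of 0.05. TIMELESS and WDHD1, which also travel with the fork, were at 0.46 and 0.30 in TE with overlapping groups.

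The dNTP genes split. TK1, the cytosolic thymidine kinase of the salvage route, had 148, 62.8 and 76.1 CPM of RF in DMSO and 134, 132 and 160 CPM in rapamycin. DMSO replicate 1 reached the rapamycin range in RF, but in TE the groups did not overlap, with log2 TE of 0.61, -0.52 and -0.21 against 0.71, 0.63 and 0.87. The TE log2 fold change was 0.78 (95% interval 0.04 to 1.52, adjusted p = 0.375 in edgeR), and with the culture as a block it was 0.80 and no longer under an unadjusted p of 0.05. Its total RNA was lower, at 98.5, 93.6 and 90.8 CPM in DMSO and 83.4, 86.6 and 88.5 CPM in rapamycin, a log2 fold change of -0.13.

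The subunits of ribonucleotide reductase were both well measured, and their fitted TE changes were small. RRM2, the regulatory small subunit and the member with the most RF reads, was at 415, 465 and 414 CPM in DMSO and 393, 421 and 329 CPM in rapamycin. RRM1, the large catalytic subunit, was at 157, 224 and 234 CPM in DMSO and 193, 175 and 153 CPM in rapamycin. Both overlapped between the treatments in RF. The TE log2 fold change was -0.13 (95% interval -0.49 to 0.23) for RRM2 and -0.22 (95% interval -0.68 to 0.24) for RRM1. As for PCNA, these intervals may be too narrow and set no firm bound on either change. TYMS, thymidylate synthase, was at -0.65 (95% interval -1.52 to 0.22), and 39.9% of its exon length is overlapped by the antisense gene ENOSF1. Whether counting used strand is not given in the sources used here, so reads of those genes cannot be told apart.

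**Figure D2:**
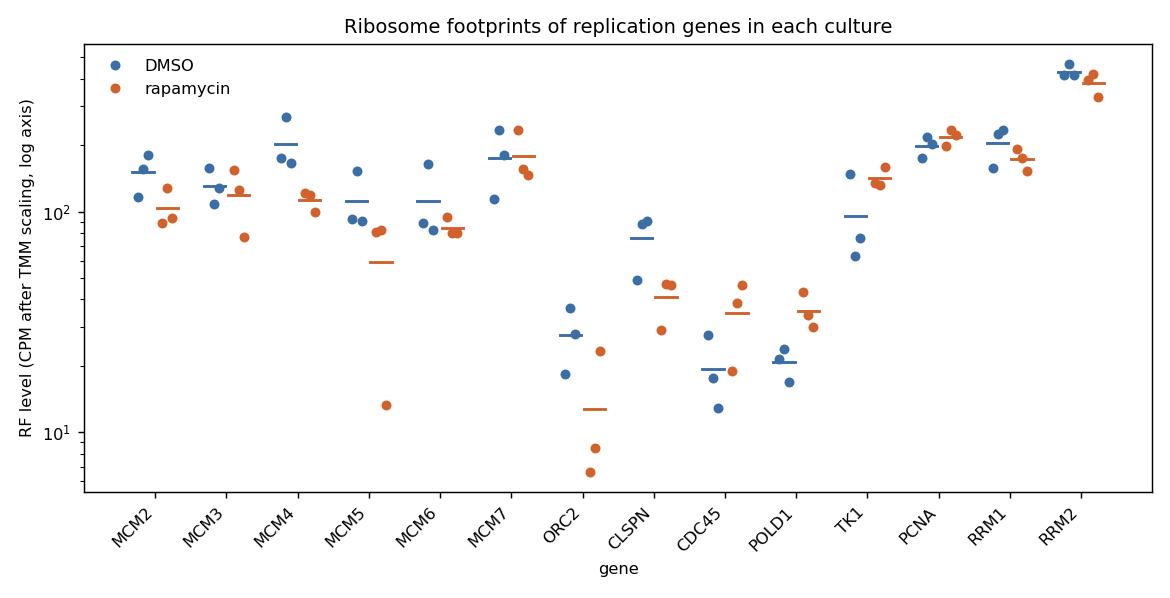
RF level (CPM after TMM scaling, log axis) of 14 replication genes in each culture, with points for the 3 DMSO (blue) and 3 rapamycin (orange) cultures in replicate order and bars for the group means. MCM4, MCM5 and CLSPN have every rapamycin point below every DMSO point and POLD1 every one above, while PCNA, RRM1 and RRM2 overlap.

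The RF counts alone gave no call either. In edgeR's quasi-likelihood test on the 6 RF libraries, 0 members passed an adjusted p under 0.05, and 2 were lower (MCM4 and CLSPN) and 0 higher at an unadjusted p under 0.05, against 1.92% and 1.76% of all genes. DESeq2's Wald test also called 0 members in RF, beside 0.0075% of all genes lower and 0.03% higher. Cultures did not overlap in RF for 3 members that were lower (MCM4, MCM5 and CLSPN) and 2 that were higher (ORC6 and POLD1), where the background was 4.21% and 5.24% of all genes. In TE, 2 members were lower without overlap (MCM4 and MCM5) and 4 higher (ORC6, GINS3, POLD1 and TK1), with backgrounds of 6.19% and 4.8%. For GINS3 this rests on 0, 1 and 5 RF reads in DMSO and 6, 6 and 1 in rapamycin, and its RF groups overlapped. Without DMSO replicate 2, 0 members were lower in RF at an unadjusted p under 0.05 in edgeR, against 1.6% of all genes, and the RF log2 fold change of MCM4 was -0.59. Without rapamycin replicate 1 there were 4, against 1.98% of all genes.

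Total RNA was the measure in which the members leaned most to 1 side, most of them slightly lower in the rapamycin cultures. In edgeR's quasi-likelihood test on the 6 total RNA libraries, 0 members passed an adjusted p under 0.05, and 5 were lower (TK1, MCM3, CLSPN, MCM10 and PRIM2) and 0 higher at an unadjusted p under 0.05, against 2.51% and 3.32% of all genes. DESeq2's Wald test also called 0 members, beside 0.03% of all genes lower and 0.188% higher. The fitted value was below 0 in 38 of 49 members (77.6%), against 46.8% of all genes tested. All members were read in the same 6 libraries, so they are not independent of each other in this count. Cultures did not overlap in 10 members, all lower (20.4%, where 6.61% of all genes were lower and 8.22% higher without overlap): GMNN, MCM3, MCM10, PRIM2, RFC4, RPA3, FEN1, CLSPN, RRM2 and TK1. The changes were small, with a median log2 fold change of -0.03 against 0.01 over all genes, and a range from -0.15 (CLSPN) to 0.07 (RPA1).

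MCM3 had 252, 249 and 245 CPM of total RNA in DMSO and 238, 234 and 232 CPM in rapamycin, a log2 fold change of -0.08 with every rapamycin culture below. MCM10 had 70.1, 68.6 and 66.3 CPM in DMSO and 64.8, 62.3 and 65.6 CPM in rapamycin, and PRIM2, a primase subunit, 57.2, 56.3 and 57.5 CPM and 53.0, 54.0 and 55.2 CPM. Both were separate between the treatments. PRIM2 has a near-identical partial copy in the genome, so its counts are uncertain. Without the 2 DMSO libraries that detected fewer genes, which left a lone DMSO library, 33 of 49 members had a fitted value below 0. The share of all genes below 0 was not computed for that fit. The members' median log2 fold change was -0.03 there as well, against 0.004 over all genes. The part of those libraries in the result was not tested. In bulk samples, fewer cells in S phase and less RNA per cell cannot be told apart.

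**Figure D3:**
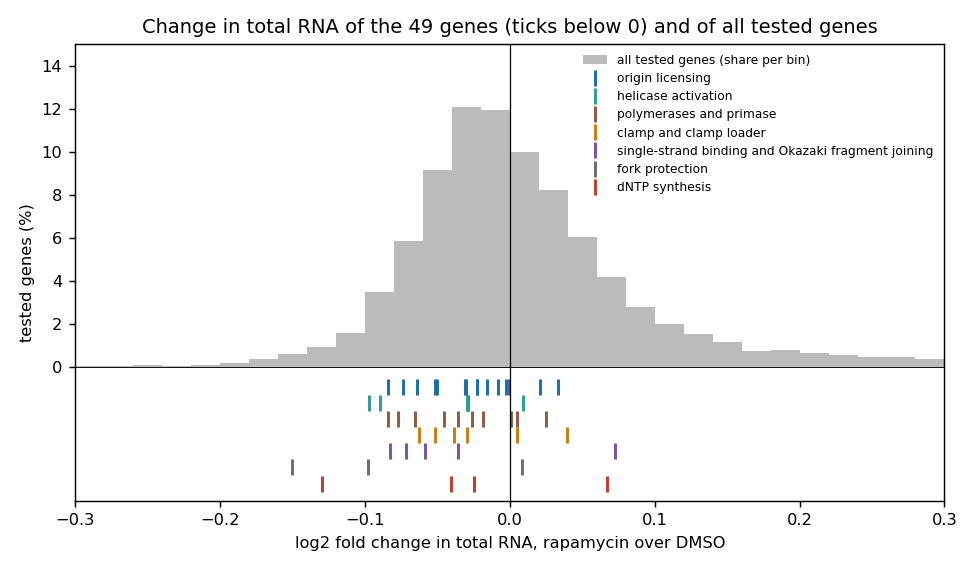
Log2 fold change in total RNA (rapamycin over DMSO, x axis) of all 13329 tested genes (grey, share of genes per bin, with genes beyond the axis not drawn) and of the 49 replication genes (ticks below 0, 1 row and colour per role). Of the ticks, 38 lie below a change of 0 and none lies beyond -0.15 or 0.07.

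Taken as a share of each library, the 49 genes made up 0.320%, 0.340% and 0.312% of the RF reads in DMSO and 0.306%, 0.302% and 0.288% in rapamycin. The DMSO cultures were all above the rapamycin cultures, but the 95% Wilson interval of DMSO replicate 3, from 0.303% to 0.321%, overlapped those of all 3 rapamycin cultures, and with TMM or DESeq2 size factors the groups overlapped. The mean difference was -7.75% with library totals and -13.2% with TMM. In total RNA the share was 0.475%, 0.471% and 0.471% in DMSO and 0.465%, 0.454% and 0.468% in rapamycin, where replicate 2 was lowest. These groups did not overlap under any of the 3 scalings, and the mean difference was -2.1% with library totals, -2.65% with TMM and -2.78% with DESeq2 size factors.

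**Figure D4:**
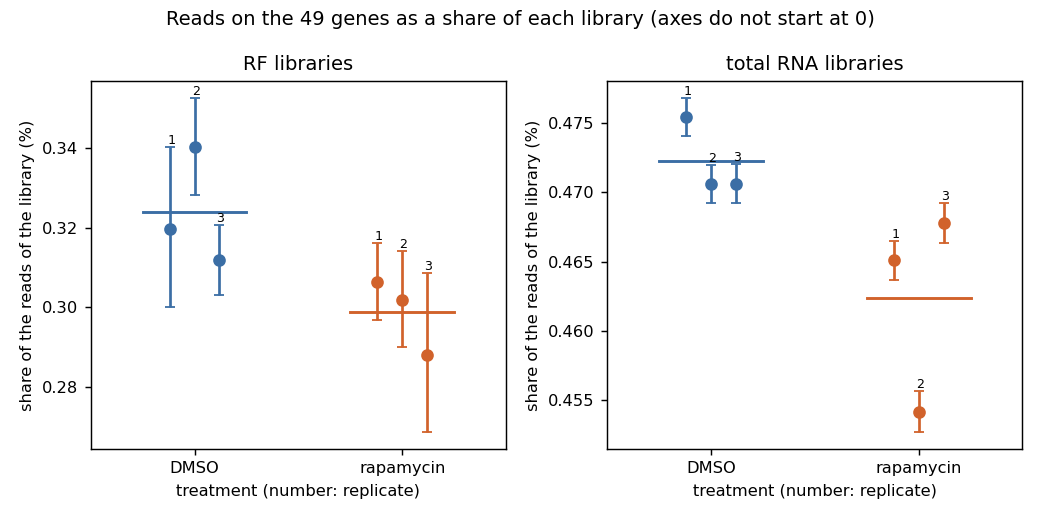
Share of all reads of a library that fell on the 49 genes (y axis, %), for RF (left) and total RNA (right) libraries of each treatment, with points for cultures, 95% Wilson intervals for counting error and bars for group means. The total RNA shares run from 0.471% to 0.475% in DMSO and from 0.454% to 0.468% in rapamycin, and neither axis starts at 0.

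A second list held 41 tested genes of the same pathways, with other replication factors and other dNTP enzymes. It was like the members in edgeR's calls and in total RNA, but not in the direction of TE. Its median TE log2 fold change was 0.08, with 46.3% of the genes below 0, against -0.15 and 59.2% for the members. In edgeR 0 of 41 had an adjusted p under 0.05 for TE, and 2 were lower (TOPBP1 and DSCC1) and 2 higher (TICRR and RNASEH2B) at an unadjusted p under 0.05, against 6.42% and 6.17% of all genes. TOPBP1, which helps to fire origins and to activate ATR, had a TE log2 fold change of -0.71 on 12, 38 and 91 RF reads in DMSO and 28, 29 and 12 in rapamycin. TICRR, its partner in origin firing, was at 1.30 on 1, 1 and 22 reads in DMSO and 25, 18 and 11 in rapamycin, so the DMSO level rests on 1 culture. DSCC1 was at -1.56 on 6, 6 and 19 reads in DMSO and 1, 4 and 4 in rapamycin. RNASEH2B was at 1.30 on 6, 0 and 18 reads in DMSO and 32, 16 and 4 in rapamycin. DESeq2 called these 4 and SAMHD1, a dNTP hydrolase, with a TE log2 fold change of -1.17, at an adjusted p under 0.05, beside 4.61% of all genes lower and 5.21% higher. In total RNA, 32 of the 41 genes (78.0%) had a fitted value below 0, against 46.8% of all genes, and 8 were lower without overlap and 0 higher, against 6.61% and 8.22% of all genes.

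Levels were compared between genes per length, as RF CPM over library totals per kilobase of coding sequence (RF density). In DMSO the density was highest for RRM2, at 358 ± 24.9 (SD, n = 3), followed by RPA3 at 283 ± 55.6 and PCNA at 244 ± 6.78, and then TYMS at 139 ± 10.2 and TK1 at 136 ± 78.3. Among the genes just named, the ranges of neighbours overlapped except between PCNA and TYMS. Near the end of the order, POLA1 also lay below its neighbour POLD1 without overlap. With the longest coding length of each gene, RPA3 was at 192, below PCNA. The lowest were POLA1 at 2.82 ± 2.25 and GINS3 at 2.22 ± 2.48. By role, the dNTP genes had the highest median density (138) and fork protection the lowest (6.52).

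The subunits of the MCM ring, which are present once each in the ring, had RF densities closer to each other than their mRNA levels. In DMSO the density ran from 43.5 ± 15.1 (MCM6) to 77.5 ± 20.7 (MCM7), a ratio of 1.78, while total RNA ran from 21.8 FPKM (MCM6) to 155 FPKM (MCM7), a ratio of 7.12. Within single DMSO cultures the ratio of the highest to the lowest RF density in the ring was 1.87, 2.46 and 2.50. In the rapamycin cultures it was 3.31, 2.23 and 10.6, the last through the 4 reads of MCM5. By mean log2 TE in DMSO, which is not scaled by length, MCM6 was highest in the ring, at the 64.7th percentile of all tested genes. MCM7 was lowest, at the 28.5th. Neither rank held in every culture. In DMSO replicate 3, MCM2 (-0.15) was above MCM6 (-0.26), and in DMSO replicate 2, MCM3 (-1.17) was below MCM7 (-0.86).

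Ribonucleotide reductase went the other way. RRM2 had 4.33 times the RF density of RRM1 in DMSO, and the ratio was 5.39, 4.23 and 3.60 in the DMSO cultures and 4.14, 4.89 and 4.38 in the rapamycin cultures, so it overlapped between the treatments. Total RNA of RRM2 was 135 FPKM against 83.0 FPKM for RRM1, a ratio of 1.63. The clamp loader also had a wider range in RF density (a ratio of 9.40, from RFC1 at 6.61 to RFC4 at 62.1) than in FPKM (3.19), and RFC1, the large subunit, was lowest in 5 of the 6 cultures. For polymerase alpha and primase the ratio of RF densities was 28.9, and 12 with the longest coding length of each gene, which lowers PRIM2. RF density takes reads on all exons and 1 isoform per gene, so ratios between genes carry the choice of that isoform. The isoform used held 0.634% of the FPKM of its gene for MCM4, 1.83% for ORC4 and 4.30% for PRIM2.

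**Figure D5:**
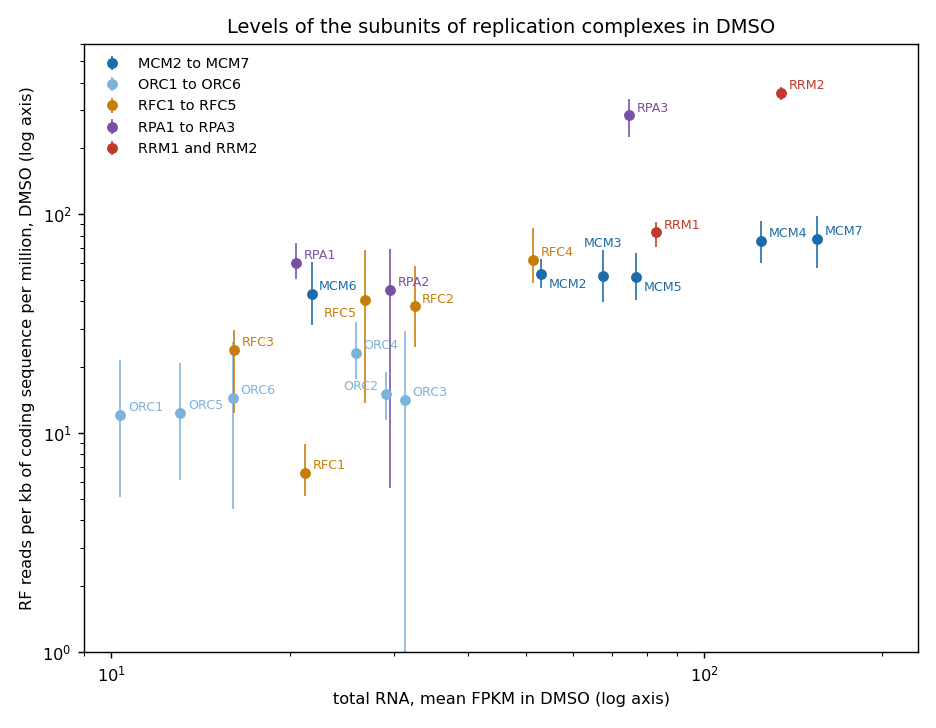
RF density in DMSO (RF CPM per kilobase of coding sequence, log axis) against total RNA in DMSO (mean FPKM, log axis) for the subunits of 5 complexes, with points for means and lines from the lowest to the highest of 3 cultures; the line of ORC3 runs to the lower axis because 1 culture had no read. The 6 MCM points lie within a ratio of 1.78 on the y axis and 7.12 on the x axis, and RRM2 stands 4.33 times above RRM1.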

How the data were processed

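RF and total RNA libraries of 3 DMSO and 3 rapamycin cultures of PANC-1 were analysed, grouped by their GEO labels. The authors removed RF reads on ribosomal RNA, aligned both kinds of reads to GRCh37 with HISAT2, and deposited raw counts per protein-coding gene (unique alignments, exons) made with featureCounts, whose version is not given in the sources used here. They also deposited FPKM values of total RNA genes and isoforms made by Cufflinks 2.2.1 (cuffnorm), and gene-level normalized signal (cuffnorm fragment counts over its size factor). Their table of the TE comparison (ratios, fold changes and p-values) was not used. The annotation used here, GENCODE for GRCh37, is of another version than theirs, and 19545 of the 20212 genes were matched by Ensembl identifier.

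Counts were analysed with edgeR 4.0.16 in R 4.3.3. Genes with at least 10 counts summed over RF and at least 10 over total RNA were tested (13329 genes), with TMM scaling within each library type. The TE change was the type-by-treatment interaction in the quasi-likelihood test with robust estimation, without a block. A prior count of 2 entered the log2 TE of single cultures. Same-numbered DMSO and rapamycin cultures did not deviate together (r from -0.216 to -0.0607). RF and total RNA libraries of 1 number come from 1 culture by their labels, yet r of their deviations was also near 0 (-0.0961 to 0.00806). Such r therefore cannot decide whether the numbers pair the treatments, and the main fit used no pairing. Alternatives were DESeq2 1.42.0 (size factors and Wald test), TMM over all libraries, other count filters, both blocks, leaving out each culture, limma 3.58.1 on FPKM and on the normalized signal, and another coding length. Leaving out the smallest RF libraries or the DMSO total RNA libraries with few genes, and the summed shares under 3 scalings, were chosen after seeing the data. The procedure was tested on simulated counts.

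The members, the second gene list and the roles were chosen with earlier results of these data known. Values in every culture are given for members with an unadjusted p under 0.05 in TE, RF or total RNA, for MCM2 to MCM7, RRM1, RRM2 and PCNA, and of the second list the genes with such a p in TE are named. TOP1, CHTF8 and PECAM1 did not match 1 row and were not analysed here. Reads carry no molecular identifiers, so intervals of shares cover counting error only.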

Additional observations from a re-analysis of the deposited data

How the results depend on the processing

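No member passed an adjusted p under 0.05 in any edgeR or limma alternative, but some of these called other genes. The most edgeR calls came without DMSO replicate 3, with 396 of 12461 genes in TE and 687 in total RNA. With at least 1 count, edgeR called 20 of 17767 genes in RF. In limma on total RNA, 110 of 63653 genes were called with log2(FPKM + 1) without a minimum, and 162 with the normalized signal. DESeq2's Wald test called 7 members and 5 genes of the second list in TE, among 1253 genes called in all. At an unadjusted p under 0.05, the count of members with higher TE was 3. It was 0 with TMM over all libraries (5.09% of all genes) and 1 with at least 50 counts (4.55%). It was 6 in DESeq2 (10.5% of all genes) and 1 to 2 when a culture was left out (4.65% to 9.94% of all genes). The count with lower TE was 3, and it was 7 in DESeq2 (11.3% of all genes) and 3 to 6 when a culture was left out (4.52% to 13.3% of all genes). With the replicate number as a block (replicate block) the higher count was 0 (3.02% of all genes) and RF gave 1 higher member (1.16%). With the culture as a block TE gave 1 lower (2.15%) and 0 higher (1.41%). None of the same-numbered libraries across the treatments deviated most like each other, which cannot decide whether the numbers pair the treatments. In RF the lower count was 2 (1.92% of all genes). It was 1 in DESeq2 (1.51%) and 4 without the cultures with the smallest RF libraries (1.37%). When a culture was left out it was 0 to 4 (1.2% to 2.66%). The higher RF count was 0 (1.76% of all genes). It was 1 without the smallest (1.54%) and 0 to 2 when a culture was left out (1.13% to 3.11%). In total RNA the lower count was 5 (2.51% of all genes). It was 3 with at least 50 counts (1.84%) and 2 without the smallest RF libraries (1.18%). When a culture was left out it was 2 to 5 (1.76% to 2.77%).

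The median TE log2 fold change of the members ran from -0.21 to 0.021 when a culture was left out, the last without DMSO replicate 3. The median of total RNA was -0.047 with at least 1 count, against 0.015 over all genes. With log2(FPKM + 1) it was -0.053 with and without a minimum, against -0.013 over all genes with the minimum and 0 without. With log2(FPKM + 0.1) it was -0.054, against -0.014 over all genes. Members with a fitted total RNA value below 0 numbered 33 to 43 over the alternatives. The share of all genes below 0 was 46.8% in the main fit and was not computed for the alternatives. The TE of MCM3 changed sign with TMM over all libraries (-0.053), with the replicate block (-0.025), with the culture block (-0.0504) and when a culture was left out (-0.19 to 0.20). That of MCM7 changed sign with TMM over all libraries (-0.029), without the smallest RF libraries (-0.013) and when a culture was left out (-0.21 to 0.26). When a culture was left out, MCM6 ran from -0.63 to 0.029 and PRIM2 from -0.35 to 0.43. The causes were not tested. The median standard error of the TE log2 fold change of the members was 0.43, and the smallest size of such a change at an unadjusted p under 0.05 was that of MCM4 (-0.76).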
